A study of Mus musculus with 8 samples.

Results

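The immediate early genes described here are 10 genes that code for subunits of the AP-1 transcription factor, for early growth response (EGR) factors and for IER3, which is induced alongside them: Fos, Fosb, Fosl2, Jun, Junb, Jund, Atf3, Egr1, Egr3 and Ier3. They were chosen by name and matched through their mouse Entrez gene IDs, so the 10 genes stand among 24235 genes with such an ID on the array, and measured values played no part in the matching. The names, and those of the related lists below, were picked with earlier results of these data known. Counts of calls among them are therefore descriptions of these genes. The cells were primary follicular cells, mostly granulosa cells by origin, which surround and nourish the oocyte, grown from preantral follicles of female Swiss mice aged 8 weeks, with ovaries of 5 mice pooled per replicate. The study asked how FOXL2, a forkhead transcription factor of granulosa cells, and 17β-estradiol (E2) act on gene expression, and 8 one-colour arrays covered 4 groups of 2.

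The groups crossed the siRNA, control or FOXL2, with the treatment, vehicle or E2, and the control siRNA groups are called the vehicle controls and the E2 controls. All cells had been moved to hormone-free medium with charcoal-treated serum, and all were transfected for 24 h with 12 pmol of siRNA, either non-targeting or directed at Foxl2, together with a plasmid for a red fluorescent protein. E2 at 100 nM, or vehicle, was present for the last 10 h before lysis, and culture lasted 9 days in all. By the paper's account, the E2 treatment followed 24 h of siRNA treatment. The control groups therefore carried the transfection as well, and no untransfected cells were part of the comparison. The design text states that duplicates came from different animals grown independently. It does not state whether 1 pool of mice served all 4 groups.

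AP-1 is a dimer of a FOS-family protein with a JUN-family protein, or of JUN-family proteins with each other or with an ATF protein, and it binds a short palindrome in the control regions of its target genes. Fos, Egr1 and their relatives are called immediate early because growth factors, gonadotropins or stress switch them on within minutes, without new protein synthesis, through the kinases of the ERK, JNK and p38 pathways and the factors SRF, ELK and CREB. In the ovary, EGR1 and AP-1 are known above all from the response of granulosa cells to the surge of luteinising hormone.

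The 250 bases upstream of the annotated start are shown for the 3 AP-1 genes whose signal changed, Fos, Jun and Jund, and for Fosb, the closest relative of Fos, whose change did not pass the test. Sequences and coordinates are RefSeq's on mouse build GRCm38.p6 and run 5′ to 3′ on the strand of the gene. Windows of 8 of the 10 members were searched, all but those of Egr1 and Egr3. A filter by chromosome was part of this selection, so their absence does not mean that they have no annotated window. Capitals mark the motifs found.
Fos, chr12:85473640-85473889, plus strand: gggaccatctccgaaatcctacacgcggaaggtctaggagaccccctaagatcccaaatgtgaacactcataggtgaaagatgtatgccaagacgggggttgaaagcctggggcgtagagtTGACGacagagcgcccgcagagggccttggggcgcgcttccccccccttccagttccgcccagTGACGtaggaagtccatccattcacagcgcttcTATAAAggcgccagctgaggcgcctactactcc
Fosb, chr7:19310046-19310295, minus strand: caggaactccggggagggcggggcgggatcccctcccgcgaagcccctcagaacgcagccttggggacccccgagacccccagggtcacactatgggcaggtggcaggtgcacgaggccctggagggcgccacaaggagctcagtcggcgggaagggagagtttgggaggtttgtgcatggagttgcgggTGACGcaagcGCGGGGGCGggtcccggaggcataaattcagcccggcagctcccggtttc
Jun, chr4:95052223-95052472, minus strand: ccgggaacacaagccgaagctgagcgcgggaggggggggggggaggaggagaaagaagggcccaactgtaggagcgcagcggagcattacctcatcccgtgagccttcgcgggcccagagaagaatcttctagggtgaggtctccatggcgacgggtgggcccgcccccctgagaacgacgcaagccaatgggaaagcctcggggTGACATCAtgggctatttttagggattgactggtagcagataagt
Jund, chr8:70697489-70697738, plus strand: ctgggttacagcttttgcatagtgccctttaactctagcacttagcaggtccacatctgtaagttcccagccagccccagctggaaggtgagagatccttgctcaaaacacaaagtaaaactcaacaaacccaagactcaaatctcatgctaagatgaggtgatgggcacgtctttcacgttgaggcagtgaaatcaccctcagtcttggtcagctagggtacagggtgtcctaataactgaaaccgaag

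The Fos window held TGACG, the core of the cAMP response element (CRE), at 129 to 125 and at 66 to 62 bases before the start, and the TATA box TATAAA at 33 to 28. TGACG lies inside every full CRE, TGACGTCA, which none of the 8 windows held. The Fosb window held TGACG at 60 to 56 and the EGR motif GCGNGGGCG at 50 to 42 bases before the start. The Jun window held TGACATCA at 45 to 38, an AP-1 variant that was searched for only after the Jun window had been read. The Jund window held none of the motifs searched. Over the 8 windows, TGACG occurred in 4 (Fos, Fosb, Junb and Atf3), against 17.8% of all 32851 windows. The EGR motif occurred in 2 (Fosb and Fosl2), against 4.70%. The forkhead motif GTAAACA occurred in 1 (Junb), against 3.17%, TGACATCA in 1, against 2.93%, and TATAAA in 1, against 7.59%. The AP-1 palindrome TGAGTCA (4.46% of all windows), the full CRE (1.55%), the CArG box bound by SRF (1.47%) and an estrogen response element of GGTCA and TGACC with 3 bases between them (0.0639%) occurred in 0 of the 8. Both strands were searched except for TATAAA. GC content was 58.4% for Fos, 68.8% for Fosb, 61.2% for Jun and 47.6% for Jund, and the median over all windows was 52.4%. A match describes letters in these windows and no binding was measured here.

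The target of the siRNA was read first. Foxl2 had a log2 scaled signal (log2 of the processed intensity after each array was brought to the same 75th percentile) of 13.46 and 13.01 on the control siRNA arrays with vehicle and 12.94 and 12.76 with E2. On the arrays labelled FOXL2 siRNA it was 13.41 and 13.39 with vehicle and 13.12 and 12.96 with E2. Averaged over the treatments, the siRNA arms differed by 0.18 (SE 0.10, limma adjusted p = 0.334), and the gene value showed no fall. Foxl2 was measured by 2 probes that moved apart: A_55_P2037732 changed by 0.18 (limma adjusted p = 0.364) and A_55_P2041668 fell by 0.97 (limma adjusted p = 0.0199, in a fit over probes). The gene value, a mean on the linear scale, followed the first of them. The second changed by -1.15 in vehicle and -0.79 in E2. By qPCR, the paper reports lower Foxl2 mRNA in follicular cells treated with its Foxl2 siRNA pool. From a separate array experiment on such cells, the paper lists Fos and Fst among its FOXL2 targets. Where each probe lies relative to the siRNA targets is not given in the sources used here. All directions below therefore rest on the labels, and the groups are called the arrays labelled FOXL2 siRNA.

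Per array, 51.4 to 55.6% of probes were well above background, none was saturated, and replicates of a group correlated at 0.989 to 0.992 across genes. Of the markers of other cells, 2 of 3 measured theca and interstitial, 1 of 6 oocyte, 2 of 5 macrophage, 2 of 5 endothelial and 3 of 5 fibroblast and smooth muscle genes were well above background on all 8 arrays, against 9 of 12 granulosa genes. The defining markers Lhcgr, Ptprc, Lyz2, Cdh5, Tek, Pdgfra and 5 of the oocyte genes were at background throughout, as were Fshr and Amh among the granulosa markers. The signals of each marker list were also summed on the linear scale, so that the brightest genes weigh most, and are given as log2. Compared within a treatment, the sums of 4 of the 6 lists were higher on both FOXL2 siRNA arrays than on both control siRNA arrays. This held in vehicle and in E2 alike. Of all single genes, 46.0% did not overlap between siRNAs in vehicle and 48.0% in E2, in either direction. Theca and interstitial genes stood at 11.9 to 12.2 against 12.5 to 12.6 in vehicle and at 12.05 to 12.05 against 12.6 to 12.7 in E2, control siRNA first. The macrophage sum stood at 8.95 to 9.01 against 9.17 to 9.31 in vehicle and at 8.88 to 8.91 against 8.94 to 9.25 in E2. It followed its brightest gene, Csf1r, with means of 8.50 against 8.86 in vehicle. Cd68 stood at 6.89 against 6.91 there and Adgre1 at 3.77 against 3.33. The median change of the macrophage genes tested was -0.08 over both treatments. The endothelial sum, mostly Kdr (mean 10.50 in the vehicle controls, against 5.59 for Pecam1), stood at 10.29 to 10.83 against 10.89 to 10.93 in vehicle. In E2 it stood at 10.1 to 10.5 against 10.6 to 10.7. The granulosa sum stood at 16.67 to 16.69 against 16.71 to 16.74 and at 16.51 to 16.58 against 16.66 to 16.74. Its brightest gene was Inha (mean 15.30 in the vehicle controls). The median change of the 10 granulosa genes tested went the other way, -0.40 in vehicle and -0.30 in E2. Oocyte genes and fibroblast and smooth muscle genes overlapped between siRNAs in both treatments. Limma called 0 markers outside the granulosa list in any comparison, with both tested theca and interstitial genes at an unadjusted p under 0.05 over both treatments. The 4 sums differed between the same labels as Fos and Egr1, and the part of these cells in the results below was not tested. In bulk RNA, fewer cells of a type and less RNA per cell cannot be told apart.

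Detection was the same in all groups. Of the 10 genes, 9 were well above background on 8 of 8 arrays. The exception was Egr3, a relative of Egr1, which was not well above background on any of the 8 arrays (log2 1.19 to 2.12) and did not pass the filter, a median scaled signal of at least 10. Its value gives only an upper bound, and it was not tested. Each gene was read by 1 probe, apart from Fosl2 with 2, so most values have no second probe as a check. The 2 Fosl2 probes stood far apart, at 13.99 and 7.47 on replicate 1 of the vehicle controls. The Fosl2 value, a mean on the linear scale, follows the brighter probe. Signals of different genes come from different probes and are not set against each other.

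**Figure D1:**
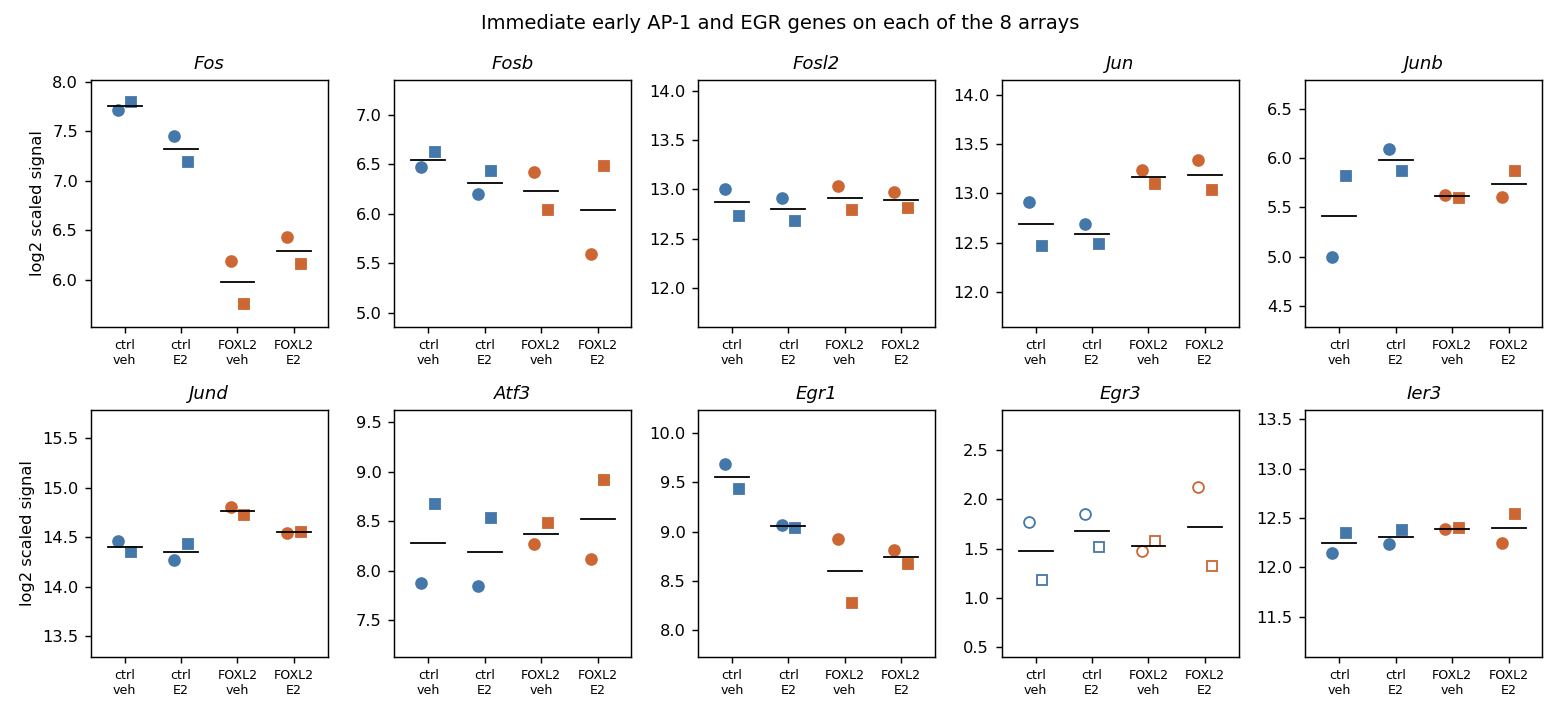
Log2 scaled signal (y axis, a span of 2.5 in every panel) of the 10 genes on each of the 8 arrays by group (x axis; ctrl, control siRNA; FOXL2, FOXL2 siRNA; veh, vehicle). Circles are replicate 1, squares replicate 2, lines group means, and open symbols are values not well above background; Fos and Egr1 lie lower on every array labelled FOXL2 siRNA, Jun and Jund higher, and Egr3 is open throughout.

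Fos, which codes for the inducible partner of JUN proteins in AP-1, had the largest change of the 9 members tested between siRNAs in each treatment. It stood at 7.72 and 7.79 on the control siRNA arrays with vehicle, 7.46 and 7.19 on the control siRNA arrays with E2, 6.19 and 5.75 on those labelled FOXL2 siRNA with vehicle, and 6.43 and 6.16 on those with FOXL2 siRNA and E2. All 4 arrays labelled FOXL2 siRNA lay below all 4 control siRNA arrays. In linear units the lowest of the 8 arrays was at 54.0 and the highest at 222, on a scale whose 75th percentile is 320. In vehicle Fos fell by 1.78 on the log2 scale (SE 0.20, 95% confidence interval -2.24 to -1.32, limma adjusted p = 0.0031), which is 3.45-fold lower. In E2 it fell by 1.03 (SE 0.20, interval -1.49 to -0.57, limma adjusted p = 0.0294), 2.05-fold lower. Over both treatments it fell by 1.41 (SE 0.14, limma adjusted p = 0.000957), which placed it 172nd of 15638 genes by p.

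The Fos probe was printed at 10 positions on each array, and all 10 spots were well above background on every array. The SD over the spots was 0.08 to 0.15 on the log2 scale. Single spots ran from 7.02 to 7.88 on the control siRNA arrays and from 5.58 to 6.58 on the arrays labelled FOXL2 siRNA, so not even the extreme spots of the 2 sets met. Spots of 1 array share its RNA and are not replicates of a condition.

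**Figure D2:**
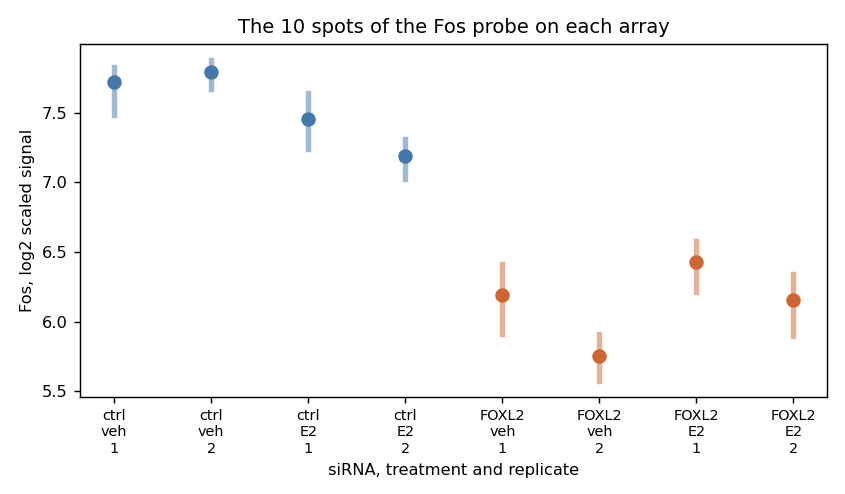
Fos on each array (x axis: siRNA, treatment, replicate number), with the point at the value of the probe, its 10 spots averaged, and the bar from the lowest to the highest spot, as log2 scaled signal (y axis). The bars of the 4 control siRNA arrays do not go below 7.02 and those of the 4 arrays labelled FOXL2 siRNA do not go above 6.58.

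The call on Fos in vehicle held in 8 of 8 fits with 1 array left out (changes of -1.57 or larger in size) and under 9 of 9 other settings. A background correction with an offset, which pulls in the change of dim genes, gave -1.07 in vehicle (limma adjusted p = 0.0030) and -0.65 in E2 (limma adjusted p = 0.0271). The call in E2 was lost with no filter on dim genes (limma adjusted p = 0.0716), with no intensity trend (0.0532) and with only the groups compared (0.0503). It was also lost whenever 1 of the 4 arrays compared was left out, with limma adjusted p-values of 0.199 and 0.101 without control siRNA, E2 replicate 1 or 2 and of 0.0622 and 0.181 without FOXL2 siRNA, E2 replicate 1 or 2.

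Fosb and Fosl2, the other FOS-family members, code for proteins that also need a JUN partner to bind DNA. Fosb stood at 6.48 and 6.62 in the vehicle controls, 6.20 and 6.43 in the E2 controls, 6.43 and 6.04 with FOXL2 siRNA in vehicle, and 5.59 and 6.48 with FOXL2 siRNA in E2. The 2 arrays of the last group spanned most of the range, so the siRNAs overlapped in E2. The vehicle controls lay above both FOXL2 siRNA arrays in vehicle and above both E2 controls. The change of Fosb was -0.32 in vehicle (interval -1.01 to 0.37) and -0.28 in E2 (interval -0.97 to 0.41). These intervals leave room for a fall of Fosb, and neither value passed the test. Fosl2, the FOS relative best known from slower and longer responses, ranged from 12.68 to 13.04 over all 8 arrays. Its change was 0.05 in vehicle (interval -0.27 to 0.37) and 0.10 in E2 (interval -0.22 to 0.42), and its probes changed by 0.07 and 0.01 over both treatments.

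Jun and Jund lay higher on the arrays labelled FOXL2 siRNA. Like other JUN-family members, they code for proteins that can bind DNA as dimers of their own kind or with a FOS protein. Jun stood at 12.92 and 12.47 in the vehicle controls, 12.69 and 12.49 in the E2 controls, 13.24 and 13.09 with FOXL2 siRNA in vehicle, and 13.34 and 13.03 with FOXL2 siRNA in E2. No control siRNA array reached any array labelled FOXL2 siRNA. Jun rose by 0.53 over both treatments (SE 0.12, limma adjusted p = 0.0250), 1.45-fold. By treatment the values were 0.47 in vehicle (limma adjusted p = 0.164) and 0.60 in E2 (limma adjusted p = 0.106), which did not pass.

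Jund, the JUN family member usually present without stimulation, stood on the control siRNA arrays at 14.46 and 14.35 in vehicle and at 14.27 and 14.43 in E2. On the arrays labelled FOXL2 siRNA it was 14.81 and 14.72 with vehicle and 14.54 and 14.56 with E2. The 4 values of each siRNA did not overlap, although the nearest values, 14.46 and 14.54, were 0.08 apart. Jund rose by 0.28 over both treatments (SE 0.06, limma adjusted p = 0.0268), 1.21-fold. In vehicle it changed by 0.36 (limma adjusted p = 0.0563; it was called there with quantile normalization, at 0.0314, and with median centring, at 0.0478) and in E2 by 0.20 (limma adjusted p = 0.330). The calls on Jun and Jund over both treatments each held in 2 of 8 fits with 1 array left out. Jun lost its call without control siRNA, E2 replicate 1 or 2, FOXL2 siRNA, vehicle replicate 1 or 2, control siRNA, vehicle replicate 2 or FOXL2 siRNA, E2 replicate 1 (highest limma adjusted p = 0.0923). Jund lost its call without control siRNA, E2 replicate 1, control siRNA, vehicle replicate 2, FOXL2 siRNA, vehicle replicate 1 or 2, or FOXL2 siRNA, E2 replicate 1 or 2 (highest limma adjusted p = 0.0918). With no intensity trend neither was called, at limma adjusted p-values of 0.0626 for Jun and 0.0691 for Jund, and with no filter on dim genes Jund was not called (limma adjusted p = 0.0516).

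Junb, the remaining JUN-family gene and an inducible one, stood at 5.00 and 5.82 in the vehicle controls, 6.09 and 5.87 in the E2 controls, 5.63 and 5.60 with FOXL2 siRNA in vehicle, and 5.60 and 5.87 with FOXL2 siRNA in E2. The first of these arrays lay apart from the other 7. The change between siRNAs was 0.20 in vehicle (interval -0.46 to 0.87) and -0.24 in E2 (interval -0.91 to 0.42), and the intervals cover changes in both directions.

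Egr1, a zinc finger factor that binds GC-rich promoters, fell together with Fos in vehicle. It stood at 9.68 and 9.43 in the vehicle controls, 9.07 and 9.04 in the E2 controls, 8.92 and 8.28 with FOXL2 siRNA in vehicle, and 8.82 and 8.67 with FOXL2 siRNA in E2. The vehicle controls were the highest pair, the arrays labelled FOXL2 siRNA were the lowest 4, and the control siRNA arrays with E2 lay between. In vehicle Egr1 fell by 0.96 (SE 0.20, interval -1.43 to -0.49, limma adjusted p = 0.0327), 1.94-fold lower, and over both treatments by 0.63 (SE 0.14, limma adjusted p = 0.0265). In E2 its change was -0.31 (interval -0.78 to 0.16, limma adjusted p = 0.515). The vehicle call was lost without control siRNA, vehicle replicate 1 (0.128) or 2 (0.0843), control siRNA, E2 replicate 1 (0.0655) or 2 (0.0657) or FOXL2 siRNA, vehicle replicate 2 (limma adjusted p = 0.111), and without the last of these the change was -0.64. It was also lost with no filter on dim genes (limma adjusted p = 0.0618), no intensity trend (0.0728) and only the groups compared (0.0985). Over both treatments it was lost without control siRNA, vehicle replicate 1, control siRNA, E2 replicate 1 or 2, or FOXL2 siRNA, E2 replicate 2 (highest limma adjusted p = 0.0840), and with no intensity trend (limma adjusted p = 0.0577).

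Atf3, a stress-induced factor that pairs with JUN proteins, stood at 7.88 and 8.68 in the vehicle controls, 7.84 and 8.53 in the E2 controls, 8.26 and 8.48 with FOXL2 siRNA in vehicle, and 8.12 and 8.92 with FOXL2 siRNA in E2. Replicate 2 was the higher one in all 4 groups and the groups overlapped. Its change was 0.09 in vehicle and 0.33 in E2, with intervals of -0.73 to 0.92 and -0.49 to 1.16. Ier3, an immediate early gene known from the control of apoptosis, ranged from 12.15 to 12.54 over all 8 arrays, with changes of 0.15 in vehicle (interval -0.13 to 0.43) and 0.09 in E2 (interval -0.19 to 0.37).

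Counted together, 2 of the 9 members tested were called between siRNAs in vehicle, both lower (Fos and Egr1), where 6.57% of all 15638 genes were called, 3.63% higher and 2.94% lower. In E2, 1 of 9 was called, Fos, against 4.39% of all genes, 2.25% higher and 2.14% lower. Over both treatments 4 of 9 were called, Jun and Jund higher and Fos and Egr1 lower, against 12.6% of all genes, 6.41% higher and 6.19% lower. The median change of the 9 members over both treatments was 0.07, against -0.00 over all genes, and their median absolute change was 0.28, against 0.15. With vehicle the groups did not overlap for 6 members (Jun, Jund and Ier3 higher, Fos, Fosb and Egr1 lower), as for 46.0% of all genes, against the 6.57% called. With E2 they did not overlap for 5 (Jun and Jund higher, Fos, Junb and Egr1 lower), as for 48.0% of all genes, against the 4.39% called. Over both treatments, 4 arrays against 4, they did not overlap for the 4 genes called, as for 20.9% of all genes, against the 12.6% called. The rule by which the study chose E2 targets on these arrays, under which group means must lie at least 1 log2 unit apart and further apart than 2 times the summed SDs, was applied here to the siRNA comparisons as well, a use the study did not make of it. There it took Fos as its 1 member in vehicle, where it took 2.94% of all genes, and again Fos in E2, where it took 2.35%. For E2 against vehicle it took 0 members, against 0.454% of all genes with control siRNA and 0.217% with FOXL2 siRNA.

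No member passed the test for E2 against vehicle. With control siRNA, limma called 0 of 9 members and 0.0192% of all genes, and 1 member, Egr1, had an unadjusted p under 0.05. The values were -0.50 for Egr1 (SE 0.20, unadjusted p = 0.0391, limma adjusted p = 1.00), -0.43 for Fos (unadjusted p = 0.0614 by limma) and 0.57 for Junb (unadjusted p = 0.0817 by limma). The 2 groups did not overlap for Egr1, Fos and Fosb, which were lower with E2, and Junb, which was higher, as for 27.2% of all genes, against the 0.0192% called. The 95% intervals reached -0.97 for Egr1 and -0.89 for Fos at one end and -0.03 and 0.03 at the other. With FOXL2 siRNA, limma called 0 of 9 members and 0.0128% of all genes, and 1 member, Jund, had an unadjusted p under 0.05. Jund changed by -0.22 there (limma unadjusted p = 0.0420, adjusted p = 1.00), without overlap of the 2 groups, as for 27.6% of all genes against the 0.0128% called, and Fos by 0.32 (limma unadjusted p = 0.147).

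The E2 effect was then compared between the siRNAs. For Fos it was -0.43 with control siRNA and 0.32 with FOXL2 siRNA, a difference of 0.75 (SE 0.28, limma unadjusted p = 0.0286, adjusted p = 0.891). For Egr1 it was -0.50 and 0.14, a difference of 0.64 (SE 0.29, limma unadjusted p = 0.0558). Limma called 0 of 9 members and 0.243% of all genes in this comparison (0.237% higher and 0.00639% lower), and Fos was the 1 member with an unadjusted p under 0.05. The smaller fall of Fos and Egr1 between siRNAs in E2 than in vehicle is the same quantity seen from the other side, and the difference did not pass. The comparisons of E2 with vehicle and those between siRNAs share arrays, so they are not independent of each other.

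**Figure D3:**
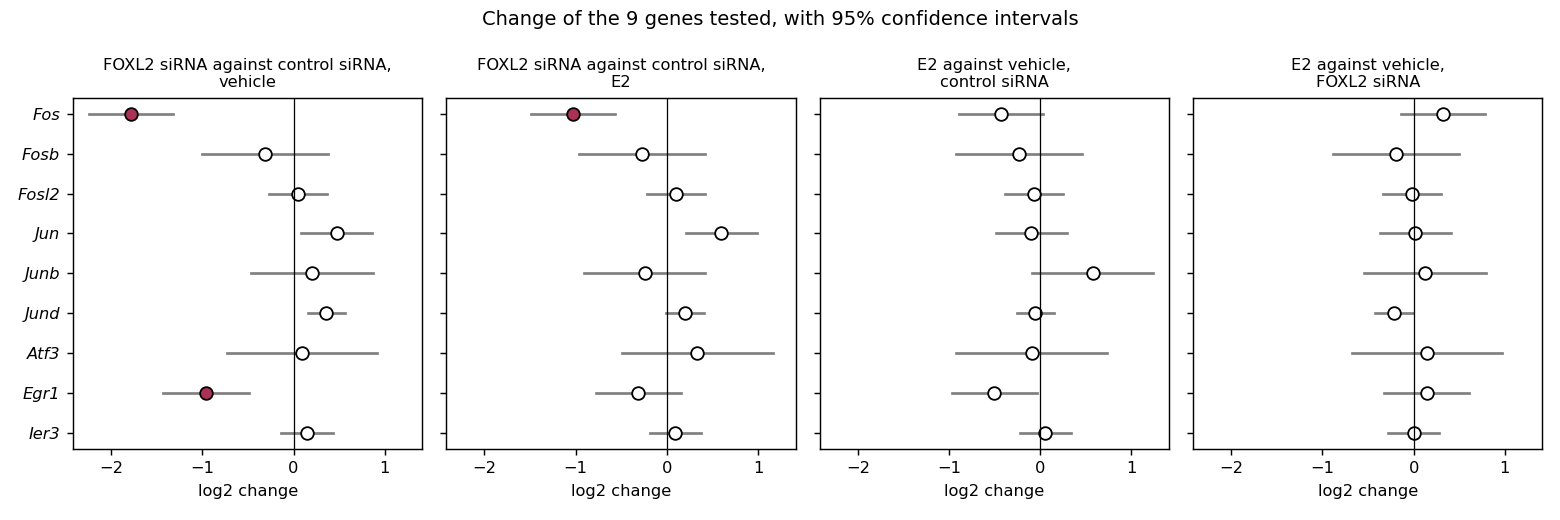
Log2 change (x axis) of the 9 genes tested (y axis) in the 4 comparisons of 2 groups each, as points with 95% confidence intervals from limma; filled points passed an adjusted p of 0.05. Only Fos and Egr1 in vehicle and Fos in E2 are filled, and no point is filled for E2 against vehicle.

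In order of level, Fos was highest in the vehicle controls (mean 7.76 ± 0.05, SD, n = 2), then in the E2 controls (7.32 ± 0.19), and lower in the FOXL2 siRNA groups, at 6.29 ± 0.19 in E2 and 5.97 ± 0.31 in vehicle. Of neighbours in this order, the E2 controls and the E2 group labelled FOXL2 siRNA were separated by the test, and the other neighbouring pairs were not. Egr1 had the same order of groups, with means of 9.56 ± 0.18, 9.05 ± 0.02, 8.74 ± 0.11 and 8.60 ± 0.45, and the test separated no neighbours in it.

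Over the 8 arrays, the log2 values of Fos and Egr1 correlated at 0.91, Fos and Jund at -0.84, Fos and Jun at -0.75, Jun and Jund at 0.74 and Atf3 and Ier3 at 0.89. These are descriptions over 8 points that share 4 groups and, for the last pair, a replicate 2 that ran higher than replicate 1 in every group. Among 13463 genes well above background on all arrays, the 5 with the profile most like Fos were Hsph1, a chaperone of the heat shock response (r = 0.996), Creb3l3, a membrane-bound relative of CREB (0.991), Vldlr, a lipoprotein receptor (0.990), Ets2, an ETS-family transcription factor (0.990), and Mid1ip1 (0.989). Their choice by profile on the same arrays fixes the direction of their difference between siRNAs, so the differences are given without a test, as -1.10 (SE 0.08) for Vldlr and -1.39 (SE 0.13) for Creb3l3 over both treatments. The 5 most like Egr1 were Tmem39a (0.992), Med27 (0.985), Cklf (0.977), Cebpb, a transcription factor of the luteinising response (0.975), and Ankrd44 (0.970). The difference of Cebpb, chosen in the same way, was -0.87 in vehicle (SE 0.13) and -0.25 in E2.

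The related genes are read against the shares of all genes called, 6.57% in vehicle, 4.39% in E2, 12.6% over both treatments and at most 0.243% in the comparisons of E2. Of 12 other AP-1 subunits and partners, from Fosl1 and the BATF genes to the small MAF genes, 11 were tested and limma called 0 in every comparison, with 2 at an unadjusted p under 0.05 between siRNAs in vehicle and 2 over both treatments. With 11 genes, 0 calls lie near those shares. Batf3 was well above background on 1 array and was not tested. Among the EGR relatives and the NAB corepressors that bind EGR proteins, 2 of 3 tested were lower over both treatments and 0 higher. Nab2, itself a target that restrains EGR1, stood at 10.53 to 10.76 on the control siRNA arrays and at 9.85 to 10.17 on those labelled FOXL2 siRNA. It fell by 0.60 (SE 0.10, limma adjusted p = 0.0066), and by 0.66 in E2 alone (limma adjusted p = 0.0383). The call over both treatments held in 8 of 8 fits with 1 array left out, and the call in E2 in 1 of 8, the one without FOXL2 siRNA, E2 replicate 1 (highest limma adjusted p = 0.217). Egr2 ran from 5.36 to 5.71 with control siRNA and from 3.54 to 4.80 with FOXL2 siRNA, where the lowest array was not well above background, and it fell by 1.17 (SE 0.25, limma adjusted p = 0.0205). With the offset background correction Egr2 changed by -0.34 and lost its call (limma adjusted p = 0.0548), and its call was lost without any 1 of the 4 control siRNA arrays or without FOXL2 siRNA, vehicle replicate 2 (highest limma adjusted p = 0.0803). Egr4 was never well above background.

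More of the other immediate early genes were called higher than lower between siRNAs. Of 28 tested, 10 were higher and 3 lower over both treatments, 9 higher and 2 lower in vehicle, and 5 higher and 2 lower in E2, with a median change over both treatments of 0.25. Csrnp1, a nuclear protein induced by AXIN1, rose by 0.68 (SE 0.07, limma adjusted p = 0.000852) over both treatments. Ccn2, a matricellular growth factor also known as CTGF, ran from 14.32 to 14.73 on the control siRNA arrays and from 15.39 to 15.69 on those labelled FOXL2 siRNA. It rose by 1.04 (SE 0.11, limma adjusted p = 0.0011). Klf4, a zinc finger factor, rose by 0.87 (SE 0.10, limma adjusted p = 0.0014), and Mcl1, an anti-apoptotic BCL2 relative, fell by 0.58 (SE 0.06, limma adjusted p = 0.0013). Dusp1, a phosphatase that switches off MAP kinases, rose by 1.09 in vehicle (SE 0.10, limma adjusted p = 0.0019). In E2 its means were 9.78 with control siRNA and 9.90 with FOXL2 siRNA, and it was not called there. Sgk1, a serum-induced kinase, fell by 1.58 in E2 (SE 0.25, limma adjusted p = 0.0149). The calls given here held in 8 of 8 fits with 1 array left out, except that of Sgk1, which was lost without control siRNA, E2 replicate 1 or 2 or FOXL2 siRNA, E2 replicate 2 (highest limma adjusted p = 0.111).

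Among 18 upstream kinases and factors, 4 were lower and 0 higher in vehicle, 0 were called in E2 (6 at an unadjusted p under 0.05 by limma), and 2 were higher and 5 lower over both treatments. Crem, a CREB relative that includes the repressor ICER, fell by 0.67 in vehicle (SE 0.12, limma adjusted p = 0.0165), as did Map2k1 (MEK1, which activates ERK) by 0.92 (SE 0.18), Rps6ka2 (a kinase downstream of ERK) by 0.89 (SE 0.18) and Mapk9 (JNK2) by 0.43 (SE 0.10). In vehicle Map2k1 stood at 12.60 and 13.13 with control siRNA and at 11.93 and 11.97 with FOXL2 siRNA, without overlap, as for 46.0% of all genes. In E2 it stood at 12.25 and 12.45 with control siRNA and at 12.34 and 12.62 with FOXL2 siRNA, with overlap and no fall. Map2k1 was not called over both treatments. The calls on Crem, Map2k1 and Rps6ka2 in vehicle were lost without FOXL2 siRNA, vehicle replicate 1 or 2 or control siRNA, vehicle replicate 2 (highest limma adjusted p = 0.108, 0.115 and 0.148), and that on Mapk9 held in 0 of 8 such fits (highest limma adjusted p = 0.211). Mapk14, the p38 kinase, rose by 0.37 over both treatments (SE 0.07, limma adjusted p = 0.0123), and was not called without FOXL2 siRNA, E2 replicate 2 (limma adjusted p = 0.0515). Rps6ka2 fell by 0.61 over both treatments and by 0.35 with the offset background correction, and its call was lost without any replicate 2 array or without FOXL2 siRNA, E2 replicate 1 (highest limma adjusted p = 0.0736).

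Of 14 genes widely described as AP-1 or EGR1 targets, 10 were tested, and 4 were higher and 4 lower over both treatments, 2 higher and 1 lower in vehicle and 1 higher and 0 lower in E2. Timp1, an inhibitor of matrix proteases, rose by 0.93 (SE 0.08, limma adjusted p = 0.000507), and the adhesion receptor Cd44 by 0.79 (SE 0.14, limma adjusted p = 0.0089). Ereg, an EGF-like growth factor, fell by 2.28 (SE 0.41, limma adjusted p = 0.0102). Plau, the protease urokinase, is counted as lower from a mean of -1.15 (SE 0.15, limma adjusted p = 0.0029) over treatments of opposite sign: it fell by 2.77 in vehicle (SE 0.22, limma adjusted p = 0.0011) and differed by 0.47 in E2 (SE 0.22, limma adjusted p = 0.336). The calls on these 4 genes over both treatments held in 8 of 8 fits with 1 array left out. The collagenase and stromelysin genes Mmp3, Mmp10 and Mmp13 were at background on all 8 arrays, and Areg was well above it on 1.

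Heat shock genes, listed as a sign of stress at harvest, were split, with 1 higher and 1 lower of 5 tested in vehicle and over both treatments. Hsph1 fell by 0.52 over both treatments (SE 0.07, limma adjusted p = 0.0025) and Hspb1 rose by 0.60 (SE 0.09, limma adjusted p = 0.0057). Of 10 granulosa markers tested, 1 was higher (Inhbb) and 4 were lower (Fst, Hsd17b1, Gja1 and Esr2) over both treatments. Fst, which codes for the activin antagonist follistatin, ran from 11.22 to 11.35 on the control siRNA arrays and from 8.91 to 9.57 on those labelled FOXL2 siRNA. The part of a changed granulosa state in the values of Fos and Egr1 was not tested.

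**Figure D4:**
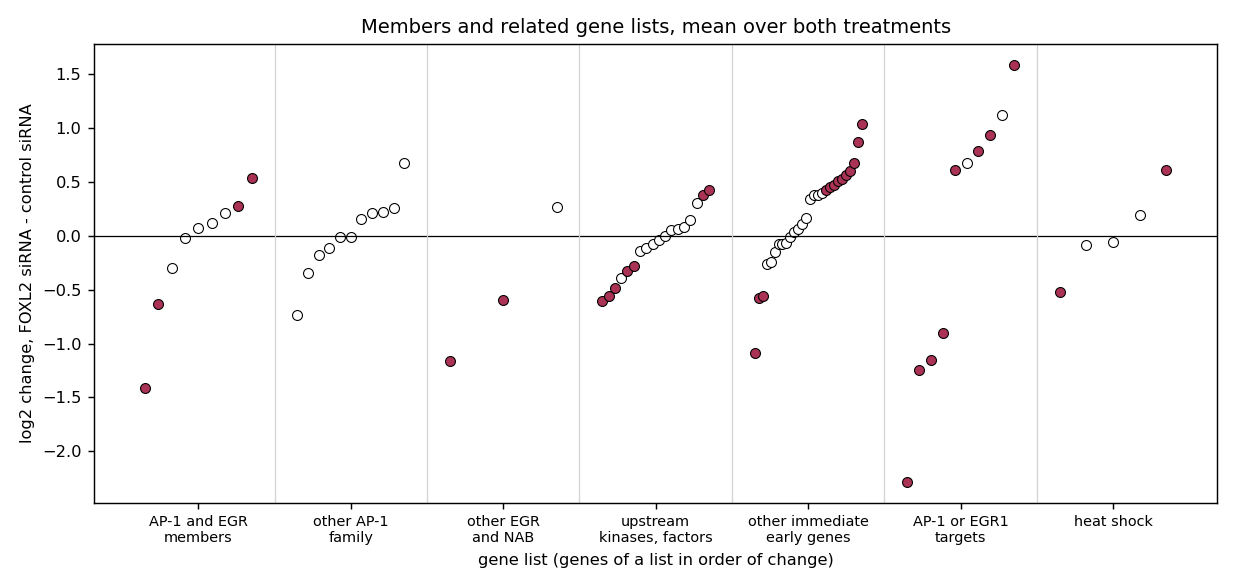
Log2 change between arrays labelled FOXL2 siRNA and control siRNA, mean over both treatments (y axis), of each gene tested in the member set and in 6 related lists (x axis, genes of a list in order of change); filled points passed a limma adjusted p of 0.05. The AP-1 relatives hold 0 filled points, and the other immediate early genes hold 10 filled points above 0 and 3 below.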

How the data were processed

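RNA of 8 samples (50 ng of total RNA each, Cy3-labelled) was hybridised to 8 one-colour Agilent arrays, which carry 62976 spots, 3671 of them controls. Per the file headers, the deposited spot intensity is the processed signal of Agilent Feature Extraction version 11.5.1.1, after background subtraction and with no scaling between arrays. The authors also deposited a log2 table, which equals the log2 of the gene mean of these intensities less 1 constant per array, within 0.001, at 98.6 to 98.9% of its named values. The 75th percentile of each of its columns is 0 and the column medians are -4.24 to -3.95.

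Spots of a probe were averaged, 39 probes marked as non-uniform were left out, arrays were brought to a common 75th percentile (275 to 367 units before scaling), probes of an Entrez ID were averaged on the linear scale, and 15638 of 24235 genes with a median of at least 10 were kept. Symbols come from RefSeq, which named 22352 IDs. Array intensities carry no read depth, so the 2 arrays per group limit the precision. Groups follow the sample titles.

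The model was a mean per group over the 8 arrays together, fitted in limma (version 3.58.1, under R 4.3.3) with an intensity trend. Tests were two-sided and adjusted by Benjamini-Hochberg over the genes kept at a threshold of 0.05. There were 6 comparisons. The members and all lists were chosen with earlier results of these data known. The text names all 10 members and, from each related list and comparison, up to 4 called genes by smallest adjusted p. It also names the called granulosa markers and the 5 genes most correlated with Fos and with Egr1. P-values measure the spread between duplicates alone. Limma drew each gene's variance towards an intensity trend over the genes kept. The fitting code was tested on simulated data. Alternatives covered background correction, normalization, filters, probe summary, the authors' table, the spread, the samples fitted, the study's rule for E2 targets, the replicate number and leaving out each array.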

Additional observations from a re-analysis of the deposited data

Results flagged for a closer look

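Plau, the protease urokinase and the gene of the target list whose E2 effect differed between the siRNAs, stood at 9.90 and 9.91 with control siRNA and vehicle and 7.75 and 8.10 with control siRNA and E2. On the arrays labelled FOXL2 siRNA it was 7.30 and 6.97 with vehicle and 8.68 and 8.11 with E2. It was lower with E2 on both control siRNA arrays and higher with E2 on both arrays labelled FOXL2 siRNA, and the test of the difference gave 3.24 on the log2 scale (SE 0.31, limma adjusted p = 0.0147). The call was lost without any 1 of the 4 control siRNA arrays or without FOXL2 siRNA, vehicle replicate 2 (highest limma adjusted p = 0.0946). It held in 3 of 8 such fits and in 7 of 8 other settings, with values of 2.62 to 3.25.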

How the results depend on the processing

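Of 468 values of members under other settings without a replicate block, 456 kept their direction and their side of the threshold, and of 432 with 1 array left out, 407 did. Most of these values were not called and stayed so, and the totals therefore say little about the calls. The 25 that changed with 1 array left out were all lost calls. They fell among the 2 calls in vehicle, 1 in E2 and 4 over both treatments, each fitted 8 times. Of the values called, 0 reversed. Members called in vehicle went from 2 to 1 with no filter on dim genes, with no intensity trend, with only the groups compared and under the study's rule for E2 targets, and to 3 (Jund added) with quantile normalization or median centring. In E2 they went from 1 to 0 with no filter, no trend and only the groups compared. Over both treatments they went from 4 to 1 with no trend and to 3 (Jund lost) with no filter. With 1 array left out the counts were 1 to 2, 0 to 1 and 1 to 3. With no filter more genes share the adjustment, and the cause of the other shifts was not tested. E2 and its difference between siRNAs gave 0 members throughout.

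Over all genes, the call count in vehicle went from 1027 to 633 with no trend, 585 with only the groups compared, 460 under that rule and 309 to 918 with 1 array left out. In E2 it went from 686 to 379, 368 under the rule and 131 to 629. Over both treatments it was 1971, and 1181 to 1879 with 1 array left out. For E2 with control siRNA it went from 3 to 7 with normexp, 1 with no filter or no trend, 71 under the rule and 0 to 5. For E2 with FOXL2 siRNA it went from 2 to 0 with no filter or only the groups compared, 1 with no trend or the brightest probe, 34 under the rule and 0 to 4. The difference went from 38 to 9 with no filter, 15 with no trend and 4 to 10.

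No source used here says that, on these arrays, a replicate number marks a shared pool, so the pairing is not established. Deviations of same-numbered arrays correlated at 0.33 to 0.44 over 6 group pairs. With the replicate number as a block, members called were 4 in vehicle (Jun, limma adjusted p = 0.0026, and Jund, 0.0126, added), 2 in E2 (Jun added, 0.000659) and 4 over both treatments, and genes called were 2932, 2331 and 4326, then 182, 96 and 332 for the E2 comparisons.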
